A study of Mus musculus with 2 samples.

Results

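The genes described here encode the proteins of the mitochondrial ribosome that carry Mrpl (large subunit) or Mrps (small subunit) symbols. They were chosen by name, as every gene whose symbol in the platform's probe annotation begins with Mrpl or Mrps followed by a number. The rule found 81 probes for 78 genes, of 19321 named genes on the array, with 49 genes of the large subunit (51 probes) and 29 of the small subunit (30 probes). All 78 genes were found in RefSeq under the same symbol by their Entrez number. They lie on 17 chromosomes, with 11 of them on chromosome 11.

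Expression was measured in the gastrocnemius, a calf muscle, of 1 female Pdgfra-CreER:R26-DTA mouse (depleted) and 1 female wild type:R26-DTA littermate (control), both aged 10 weeks. Both mice carried R26-DTA, a diphtheria toxin A gene at the Rosa26 locus that Cre switches on, and both were given tamoxifen over 5 days starting at 9 weeks, with muscle taken 2 days after the last dose. In the depleted mouse the Pdgfra promoter drives the tamoxifen-activated Cre, so toxin is made where that promoter is active, chiefly in mesenchymal progenitors, the interstitial cells that produce matrix. The control carried no CreER, so CreER itself, the loss of cells, the animal and the array cannot be told apart, and with 1 array per group no difference below has a replicate check or a test.

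Mitochondria have their own ribosomes, which translate the few messenger RNAs of mitochondrial DNA into core subunits of the respiratory chain. All ribosomal proteins come from nuclear genes and are imported, while the ribosomal RNAs are made in the organelle. The small subunit decodes the messenger RNA and the large subunit forms the peptide bond and passes the growing chain through a tunnel to the inner membrane. Some of the proteins have bacterial counterparts, and others were added in the mitochondrial lineage. Muscle fibres hold many mitochondria, and the promoters of such genes are known for binding sites of NRF1, of ETS factors such as GABP and of YY1.

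Promoter letters are shown first because several of these genes share known motifs and because many of them start close to an oppositely oriented neighbour. RefSeq windows of 300 bases, 250 before and 50 after the start (assembly GRCm38.p6), held 69 of the 78 genes in 75 windows. Mrpl4, Mrpl13, Mrpl15, Mrpl19, Mrpl38, Mrpl54, Mrps28, Mrps34 and Mrps35 had no entry. The motifs searched on both strands were GCGCATGCG for NRF1, CCGGAAG for ETS factors, AAGATGGCG for YY1 and TGACGTCA for CREB. The 100 bases before the start are printed 5′ to 3′ on the gene's strand, with motif matches in capitals, for genes chosen with their values known: both genes with the highest large subunit ratios (Mrpl9, Mrpl32), the gene with the lowest (Mrpl48), a gene with both NRF1 and ETS matches (Mrpl22), one with a YY1 match (Mrpl36) and Mrps18a, among the highest of the small subunit.
Mrpl9, chr3:94443236-94443335, plus strand: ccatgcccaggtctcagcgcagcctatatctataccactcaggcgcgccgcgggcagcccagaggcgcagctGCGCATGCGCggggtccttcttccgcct
Mrpl32, chr13:14613038-14613137, minus strand: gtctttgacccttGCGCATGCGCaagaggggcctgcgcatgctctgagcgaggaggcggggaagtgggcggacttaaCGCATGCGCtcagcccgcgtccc
Mrpl22, chr11:58171564-58171663, plus strand: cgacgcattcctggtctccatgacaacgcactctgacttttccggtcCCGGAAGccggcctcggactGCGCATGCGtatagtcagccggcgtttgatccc
Mrpl48, chr7:100583131-100583230, minus strand: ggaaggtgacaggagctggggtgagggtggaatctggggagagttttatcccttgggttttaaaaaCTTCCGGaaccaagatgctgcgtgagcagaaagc
Mrps18a, chr17:46110904-46111003, plus strand: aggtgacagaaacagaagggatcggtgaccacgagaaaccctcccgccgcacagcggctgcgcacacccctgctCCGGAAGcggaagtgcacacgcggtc
Mrpl36, chr13:73330909-73331008, plus strand: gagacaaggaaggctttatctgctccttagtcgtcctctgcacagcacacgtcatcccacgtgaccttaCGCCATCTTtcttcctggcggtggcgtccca
CGCATGCGC, CTTCCGG and CGCCATCTT are the NRF1, ETS and YY1 motifs read on the other strand, and GCGCATGCGC holds overlapping NRF1 matches on both strands. The Mrpl48 window belongs to 1 of 4 annotated starts, the most downstream.

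The NRF1 motif was found in the windows of 7 member genes (10.1% of 69), against 2.98% of the 14493 array genes with an entry. These were Mrpl9, Mrpl10, Mrpl17, Mrpl22, Mrpl32 and Mrpl39 of the large subunit and Mrps18b of the small subunit. The ETS motif was found in 26 genes (37.7% against 14.3%), 15 of the large and 11 of the small subunit. The YY1 motif was found in 8 genes (11.6% against 2.44%), 4 of each subunit, and in 6 of them it reached past the start into the transcribed bases. The CREB motif was found in 2 genes (2.90% against 2.83%). Over all 32851 RefSeq promoters of the same length the shares were 1.75% for NRF1, 8.86% for ETS, 1.40% for YY1 and 1.79% for CREB. The median GC content was 58.7% in the member windows and 58.0% in those of array genes. A match is a description of the letters and not a binding site.

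**Figure D1:**
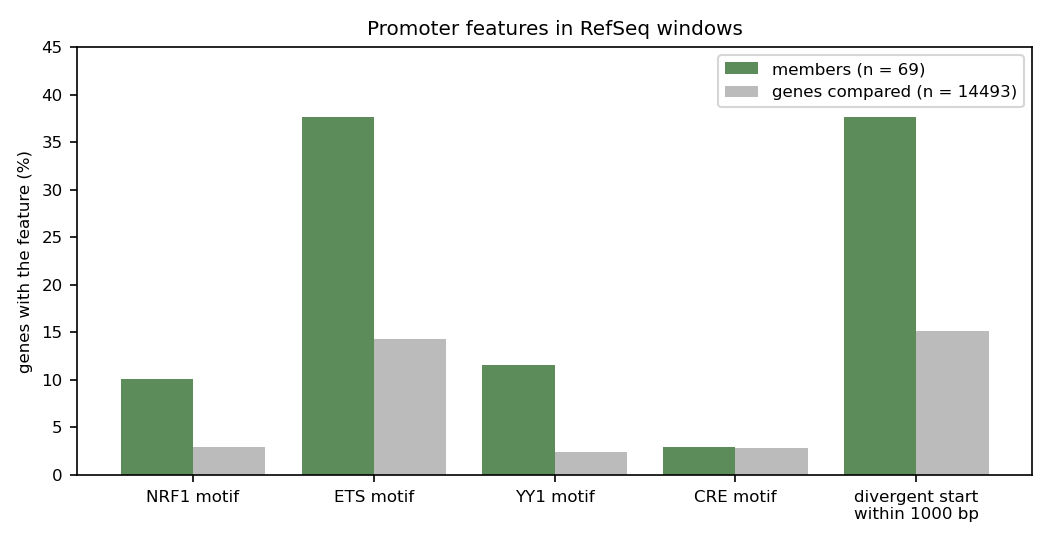
Share of genes (%) whose RefSeq promoter window holds each motif, or whose start lies within 1000 bases of an oppositely oriented start, for the 69 member genes and the 14493 array genes with an entry. The NRF1, ETS and YY1 motifs and divergent starts were more frequent among members (10.1%, 37.7%, 11.6% and 37.7%) than among array genes (2.98%, 14.3%, 2.44% and 15.1%), and the CREB motif was not (2.90% and 2.83%).

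Divergent starts, in which a second gene begins within 1000 bases and runs the other way, were present for 26 of the 69 genes (37.7%) against 15.1% of array genes. Mrpl46 and Mrps11 are a pair of members whose starts lie 42 bases apart, and the whole stretch between them is short enough to print on the plus strand.
Mrpl46 to Mrps11, chr7:78783090-78783130, plus strand: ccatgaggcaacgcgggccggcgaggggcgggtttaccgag
None of the 4 motifs was found in these 41 bases.

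The 78 genes were compared as the log2 ratio of depleted over control, after quantile normalization, which gives both arrays the same distribution of intensities. The background limit was set 2 SD over the average blank spot (37.4 for the control, 38.5 for the depleted array), and all 78 genes passed it on both. Before normalization the spot medians of the members ran from 38.5 to 5379 in the control (median 442) and from 39.5 to 5368 in the depleted muscle (median 581). The depleted array was brighter for most of the array: 90.6% of the 18498 genes compared had a higher spot median on it, as did 69 of the 78 members. In the authors' deposited table, which scales each array to a median of 25, the members ran from 2.9 to 6798.6 in the control (median 516) and from 2.4 to 5003.4 in the depleted muscle (median 510).

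After normalization 52 of the 78 genes were lower and 24 higher in depleted muscle, and Mrpl52 and Mrps16 were at a ratio of 0, against 52.4% lower and 47.4% higher among all genes compared, but scaling each array to its median turned this to 22 lower and 56 higher, beside 54.5% and 45.5% of all genes. The median log2 ratio was -0.10, against -0.0036 for all genes, and 0.12 with scaling to the median. Differences were small: 2 genes, Mrpl48 and Mrps28, were at least 1.5-fold lower, where 1.52% of all genes were, and 0 were at least 1.5-fold higher, where 1.96% were. At 2-fold no member was past the limit in either direction, where 0.427% of all genes were lower and 0.492% higher. Within 0.25 of 0 on the log2 scale lay 50 members, beside 83.7% of all genes, most of which are dimmer. With scaling to the median 5 members (Mrpl9, Mrpl17, Mrpl32, Mrps18a and Mrps30) were at least 1.5-fold higher, beside 4.84% of all genes, and 0 were at least 1.5-fold lower, beside 0.676%. At 2-fold it placed 0 members higher, beside 1.17% of all genes, and 0 lower, beside 0.205%. The authors' deposited values are also scaled to each array's median, but with no offset added. In them 51 genes were lower and 27 higher, beside 50.7% and 48.1% of all genes. Of the 78 genes 75 had the same sign there as after quantile normalization. There 3 members (Mrpl48, Mrpl28 and Mrps28) were at least 1.5-fold lower, beside 7.19% of all genes, and 1 (Mrpl41, close to background) at least 1.5-fold higher, beside 9.19%.

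The large subunit had 35 genes lower, 13 higher and 1 at 0, with a median of -0.12 and ratios from -0.90 (Mrpl48) to 0.35 (Mrpl9), and its median was 0.07 with scaling to the median. The small subunit had 17 lower, 11 higher and 1 at 0, with a median of -0.07 and ratios from -0.60 (Mrps28) to 0.40 (Mrps30), and its median was 0.14 with scaling to the median. The spread of the ratios over genes was the same in both, with an SD of 0.24. Genes named after bacterial counterparts and those with higher numbers had medians on the same side of 0: among large subunit genes numbered up to 36, 19 of 28 were lower (median -0.12), and among the higher numbers 16 of 21 (median -0.19), against 7 and 8 with scaling to the median. Among small subunit genes numbered up to 21, 8 of 16 were lower (median -0.03), and among the higher numbers 9 of 13 (median -0.08), against 4 and 3 with scaling to the median.

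**Figure D2:**
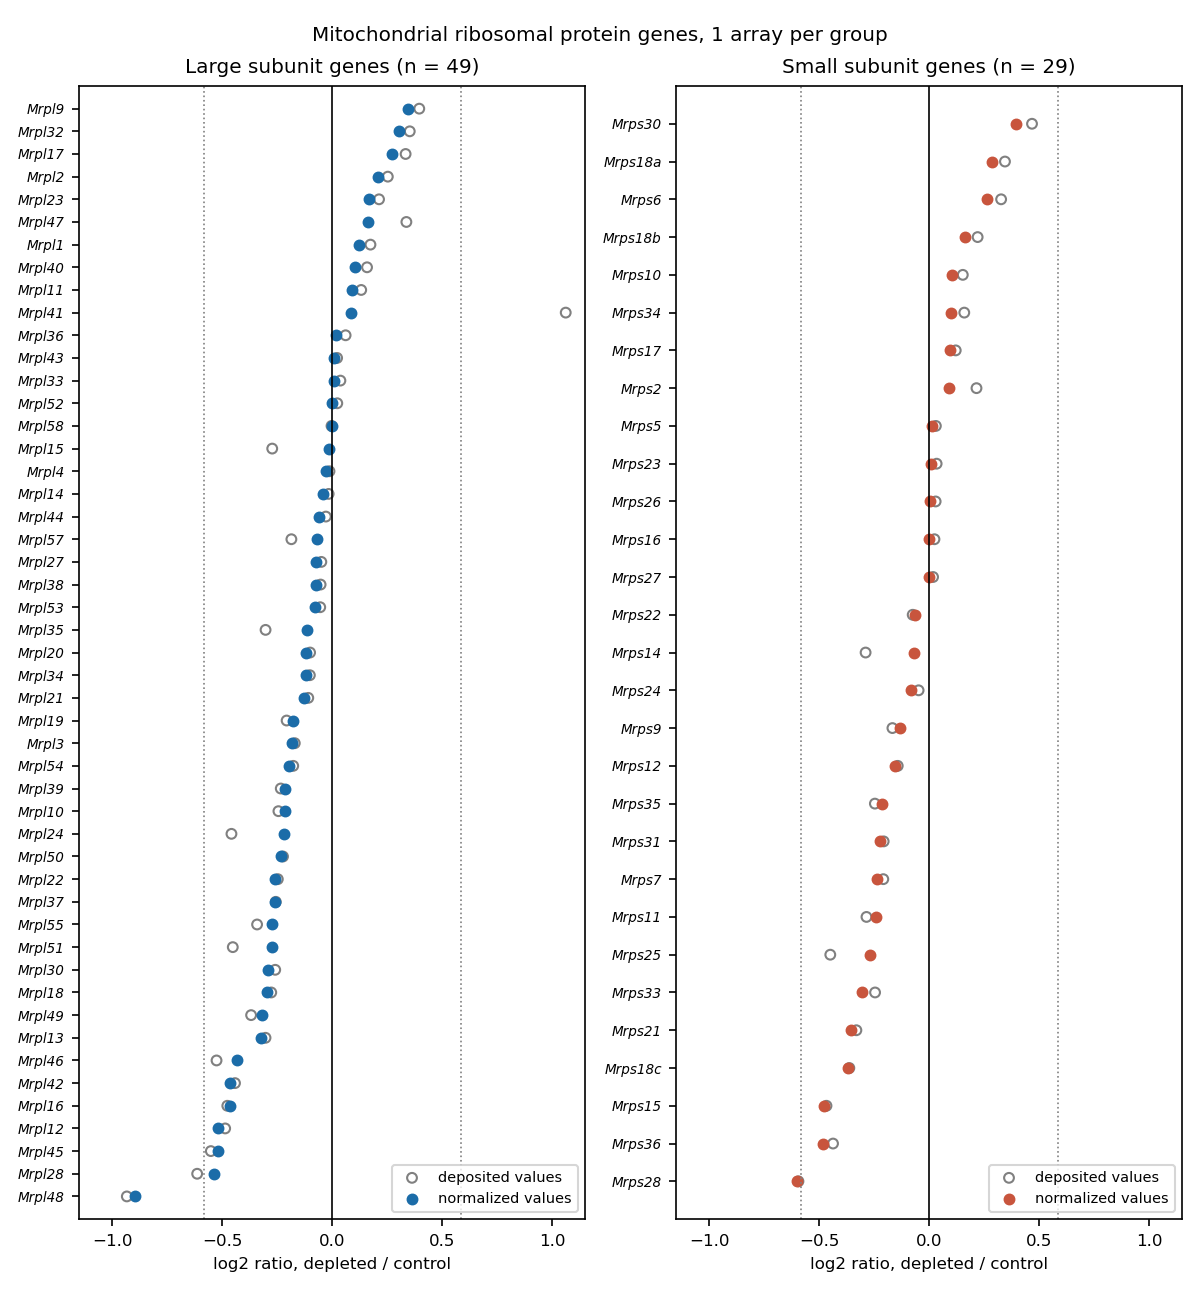
Log2 ratio of depleted over control for each gene of the large subunit (49 genes) and the small subunit (29 genes), with 1 array per group and no error bars, after quantile normalization and in the authors' deposited values (open circles), with dotted lines at 1.5-fold. The large subunit ran from -0.90 (Mrpl48) to 0.35 (Mrpl9) and the small subunit from -0.60 (Mrps28) to 0.40 (Mrps30). Of the 78 genes 50 lay within 0.25 of 0, beside 83.7% of all genes. Scaling to the median turned the medians from -0.12 and -0.07 to 0.07 and 0.14.

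The spot-to-spot part of a ratio's precision on these arrays could be read from repeated spots. The platform carries 2 positive controls of 24 spots each, whose log2 ratios had an SD of 0.14 and 0.15 over the spots. This covers the spot-to-spot error within an array pair and not the difference between animals. Beyond 0.15, 34 members were lower and 10 higher, and 34 lay within it. Of all genes 14.2% were beyond it on the lower side and 13.8% on the higher side. Most members are bright, while all genes include many dim ones. Among the 4625 brightest genes the quartiles of the ratio were -0.22 and 0.20, both beyond 0.15. With scaling to the median the split turned round, to 8 members lower, 36 higher and 34 within. This stood beside 6.31% of all genes lower and 26.3% higher. The quartiles of the 4625 brightest genes were then 0.03 and 0.47. Over the 1035 genes with 2 probes above background, the ratios of the probes differed by a median of 0.097, and by 0.35 at the 90th percentile. For the 313 of these genes with both probes bright, as most members are, the median was 0.16.

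Central protuberance proteins form the crown of the large subunit. Mrpl48 had spot medians of 742 in the control and 537 in the depleted muscle, and deposited values of 897.7 and 469.7. It was the lower on the depleted array even before scaling, and its ratio was -0.90, a 1.86-fold lower level. A second, dim Mrpl48 probe read 12.2 and 6 in the deposited table, with a ratio of -0.14 after normalization and -1.02 in the deposited values. RefSeq lists 6 pseudogenes of members, of Mrpl23, Mrpl27, Mrpl48 and Mrps36, so the levels of these genes are uncertain where a probe can share signal with a copy. Mrpl46 read 284.6 and 197.6 in the deposited table (ratio -0.43), and Mrpl18, a protein beside the protuberance's RNA, read 1241.7 and 1024.5 (ratio -0.30). Mrpl40 was on the other side, at 376.6 and 420.3 (ratio 0.10), and Mrpl58, a peptidyl-tRNA hydrolase that became a ribosomal protein, was nearly level at 264.3 and 263.7. Of the 7 genes listed for this region 5 were lower and 1 higher (median -0.07), and with scaling to the median 2 were lower and 5 higher (median 0.21).

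The stalk recruits translation factors to the large subunit. Mrpl12, which forms its flexible part, had deposited values of 1330.7 in the control and 949.4 in the depleted muscle, with a ratio of -0.52. Mrpl10, which anchors Mrpl12, read 312.7 and 263.9 (ratio -0.22), and Mrpl11, at the stalk's base, read 523.6 and 573.7 (ratio 0.09). The stalk's 3 genes did not share a direction, with 2 lower after quantile normalization and 1 lower with scaling to the median.

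Around the peptidyl transferase centre, where the peptide bond forms, 4 of 5 listed genes were lower (median -0.07), and 1 of 5 with scaling to the median (median 0.23). Mrpl16 read 989.7 in the control and 710.9 in the depleted muscle (ratio -0.47), while Mrpl2 read 993.8 and 1184.2 (ratio 0.21). At the polypeptide exit tunnel 5 of 8 listed genes were lower (median -0.14), and 2 of 8 with scaling to the median (median 0.15). Mrpl45, which tethers the ribosome to the inner membrane at the tunnel's end, read 716.6 and 488.7 (ratio -0.52). Mrpl17 and Mrpl23, also at the exit, were on the other side, with 637.6 and 803.6 for Mrpl17 (ratio 0.27) and 1736.8 and 2013.1 for Mrpl23 (ratio 0.17). The probes of Mrpl47 disagreed: the brighter read 52 and 65.7 (ratio 0.16) and the other 54.7 and 36.6 (ratio -0.26), so its direction is unsettled.

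Among the other large subunit genes, Mrpl28 had spot medians of 349 and 314 and deposited values of 397.6 and 259.7, with a ratio of -0.54 and a 1.53-fold lower level in the deposited table. Mrpl42, the brightest member, read 6798.6 in the control and 5003.4 in the depleted muscle (ratio -0.47), although its spot medians of 5379 and 5368 were almost equal. Mrpl30, another of the brightest, read 2631.5 and 2198.5 (ratio -0.29). The highest ratios belonged to Mrpl9, with spot medians of 467 and 805 and deposited values of 548 and 721.1 (ratio 0.35, 1.27-fold), and to Mrpl32, which a mitochondrial protease must cut before it joins the ribosome, with deposited values of 545.6 and 696.7 (ratio 0.30). Both carry the NRF1 motif printed above, as does Mrpl17. Of the 7 genes with that motif 4 were higher and 3 lower (Mrpl10 at -0.22, Mrpl22 at -0.26 and Mrpl39 at -0.21), where 24 of all 78 members were higher. With scaling to the median all 7 were higher, as were 56 of all 78 members and 45.5% of all genes. Mrpl10, Mrpl22 and Mrpl39 were then at 0.04, 0.05 and 0.05. After quantile normalization the median of the 7 genes was the ratio of Mrps18b, 0.16. That of the other 62 genes with a promoter entry was -0.10, beside 0.012 and -0.0035 for all array genes with and without the motif. Member genes with and without the ETS motif had medians of -0.07 and -0.12.

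The dimmest large subunit genes were close to the background limit, and their ratios carry little information. Mrpl15 had spot medians of 38.5 and 39.5 and deposited values of 2.9 and 2.4. Mrpl41 had spot medians of 38.9 and 44.5, and its deposited values of 3.4 and 7.1 made it the only member at least 2-fold higher in that table (log2 1.06), beside 2.86% of all genes, with 0 at least 2-fold lower, beside 1.96%, while its normalized ratio was 0.09. Mrpl33 read 11.5 and 11.8 (ratio 0.01).

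In the small subunit the lowest ratio belonged to Mrps28, a counterpart of a bacterial ribosomal protein. Its spot medians were 1559 in the control and 1403 in the depleted muscle, its deposited values 1937.2 and 1282.5, and its ratio -0.60, a 1.52-fold lower level. Mrps36 read 2537.8 and 1873.7 (ratio -0.48); its product is now known as a subunit of the alpha-ketoglutarate dehydrogenase complex. With scaling to the median the ratio of Mrps28 was -0.28 and that of Mrps36 -0.12, the latter within the spot-to-spot SD.

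Of 13 genes listed for the small subunit's body and platform, where messenger RNA is decoded, 8 were lower and 4 higher (median -0.06). With scaling to the median 4 were lower and 9 higher (median 0.14). The region lists leave out some small subunit genes, Mrps28 among them. Mrps15 read 1141.8 and 825.8 (ratio -0.48), Mrps18c read 912.4 and 709.2 (ratio -0.37) and Mrps21 read 3711.1 and 2949.4 (ratio -0.36). A second Mrps21 probe was lower too, at 1439.7 and 1204 (ratio -0.29). Mrps6 was higher, at 256.6 and 321.9 (ratio 0.26). The dim Mrps27 read 82.1 and 83.1.

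In the head, which moves during translation, 7 of 8 listed genes were lower (median -0.17), and 1 of 8 with scaling to the median (median 0.08). Mrps33 read 1644.5 and 1386.3 (ratio -0.31) and Mrps24, one of the brightest of the subunit, read 1932.8 and 1869.1 (ratio -0.08). Mrps14, the dimmest of the subunit, read 19.8 and 16.2 (ratio -0.07). Mrps10 was the exception, at 498.8 and 554.5 (ratio 0.10).

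Mrps30 and Mrps18a carry small subunit names but sit in the large subunit. Mrps30 had spot medians of 411 and 740 and deposited values of 477 and 659.6, with the highest ratio of all members, 0.40 (1.32-fold). Mrps18a read 838.4 and 1064.6 (ratio 0.28). Both were higher under scaling to the median too, with a median of 0.66. Mrps18b, a paralogue of Mrps18a that belongs to the small subunit, read 391.7 and 456.3 (ratio 0.16), so Mrps18a, Mrps18b and Mrps18c did not share a direction. Mrps2 was dim, at 39.2 and 45.5 (ratio 0.09).

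Most members are bright, and brightness bears on how a ratio is read. Of the 78 genes 65 were among the 4625 brightest genes, and 44 of the 65 were lower (67.7%) against 51.0% of the 4625. Their median was -0.13 against -0.0065, but with scaling to the median it was 0.14, and that of the 4625 genes 0.24. Under that scaling the share of lower genes did not stand out, at 14 of 65 members (21.5%) against 21.7% of the 4625. The members also varied less: the SD of their ratios was 0.26 against 0.43. Of the 65, 2 (3.08%) were at least 1.5-fold different in either direction against 10.8% of the 4625. A low spread was not particular to the members. Over all intensities the SD was 0.24 for members, 0.23 for nuclear complex I genes and 0.21 for cytosolic ribosomal protein genes. It was 0.16 for mitochondrial translation factors and 0.29 for nuclear genes of the other respiratory complexes.

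**Figure D3:**
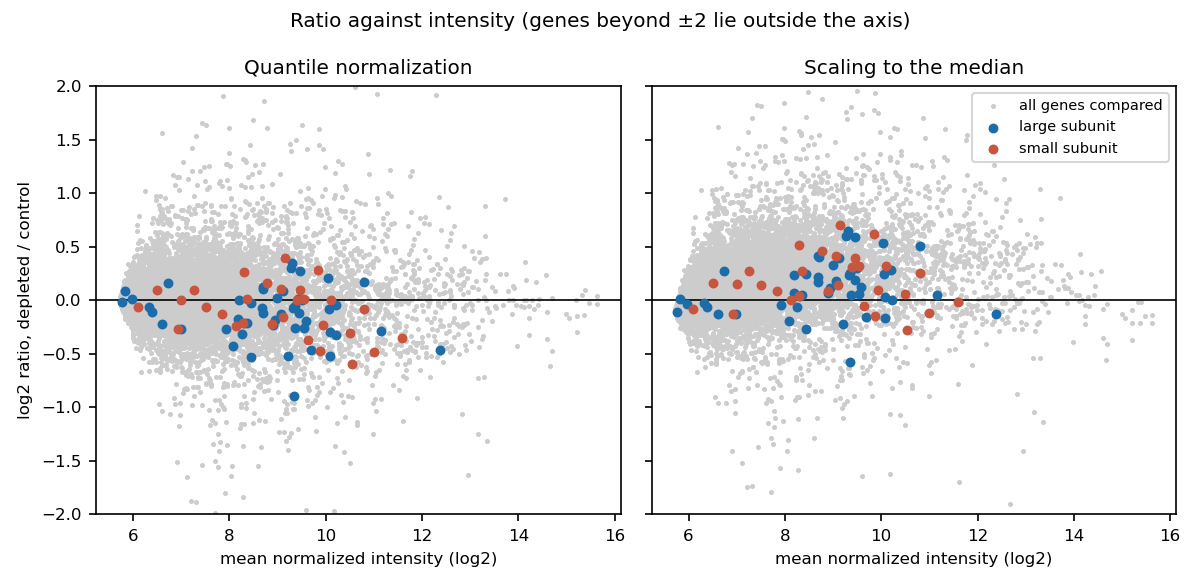
Log2 ratio of depleted over control against mean normalized intensity (log2) for all genes (grey), large subunit and small subunit members, after quantile normalization and after scaling to the median. Of the 78 members 65 are among the 4625 brightest genes and a few lie near background, with a member median of -0.10 after quantile normalization and of 0.12 after scaling to the median, where the brightest genes have a median of 0.24.

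The other parts of the mitochondrial translation system were measured too. Among ribosomal proteins listed under other names 4 were found on the array by symbol. Dap3, Ptcd3, Chchd1 and Gadd45gip1 were all lower, with ratios of -0.38, -0.37, -0.31 and -0.10. Their median was -0.34, and -0.02 with scaling to the median, where 2 were higher. Of 17 measured genes for translation factors and mitochondrial messenger RNA handling 13 were lower (median -0.21, and 0.01 with scaling to the median). The elongation factor Gfm1 and the initiation factor Mtif2 had ratios of -0.37 and -0.34, and Taco1, an activator of cytochrome oxidase translation, read 46.1 and 28.2 (ratio -0.28). Genes that charge mitochondrial tRNAs were divided, 11 lower and 10 higher (6 and 15 with scaling to the median), from Qrsl1, a subunit of the glutamyl-tRNA amidotransferase (ratio -0.58), and the leucyl-tRNA synthetase gene Lars2 (ratio -0.50) to the lysyl-tRNA synthetase gene Kars (ratio 0.43), which also serves the cytosol. This list holds synthetases and the amidotransferase subunits Qrsl1, Gatb and Gatc. Assembly and RNA modification factors were divided as well, 13 lower and 12 higher (6 and 19 with scaling to the median), among them Malsu1 (ratio 0.29), Mrm1 (ratio -0.28) and Rpusd4 (ratio 0.24).

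Nuclear genes for the respiratory chain, other parts of which these ribosomes make, had lower medians than both ribosomal subunits under quantile normalization and scaling to the median. Of 36 nuclear genes with complex I symbols 32 were lower (median -0.39, and -0.06 with scaling to the median). Ndufs1 and Ndufs8 were both at -0.72 and Ndufb7 at -0.60. Of 48 measured genes of the other complexes 38 were lower (median -0.22, with -0.02 after scaling to the median and -0.37 after cyclic loess), with Cyc1 at -0.84, Cox7a1 at -0.73 and Uqcrc2 at -0.72. Cytosolic ribosomal protein genes lay on the other side, with 52 of 68 higher (median 0.12, with 0.37 after scaling to the median and 0.048 with 44 higher after cyclic loess), led by Rps27 at 0.88, Rpl10 at 0.60 and Rpl36a at 0.52. Cytosolic ribosomal genes have near-identical copies elsewhere in the genome, so the level of each is uncertain. The 48 genes of the other complexes include Uqcrh-ps1, a pseudogene by its symbol (ratio -0.35). None of these families was tested against the members.

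Among 13 genes that copy and transcribe mitochondrial DNA 5 were lower and 8 higher (median 0.08, and 0.16 with scaling to the median). Tfam, which packages that DNA and starts its transcription, read 538 and 300.5 (ratio -0.75), Ssbp1 had a ratio of -0.24 and Elac2 of 0.19. Among 16 regulators of mitochondrial biogenesis 7 were lower and 9 higher (median 0.04, and 0.08 with scaling to the median). The coactivator Ppargc1a read 427 and 197.3 (ratio -0.96), Ppara read 177.7 and 77.9 (ratio -0.81) and Myc read 19.7 and 71.5 (ratio 0.74). Factors whose motifs were searched lay on both sides: Nrf1 had a ratio of 0.35, Yy1 of 0.28 and Gabpa of -0.30.

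**Figure D4:**
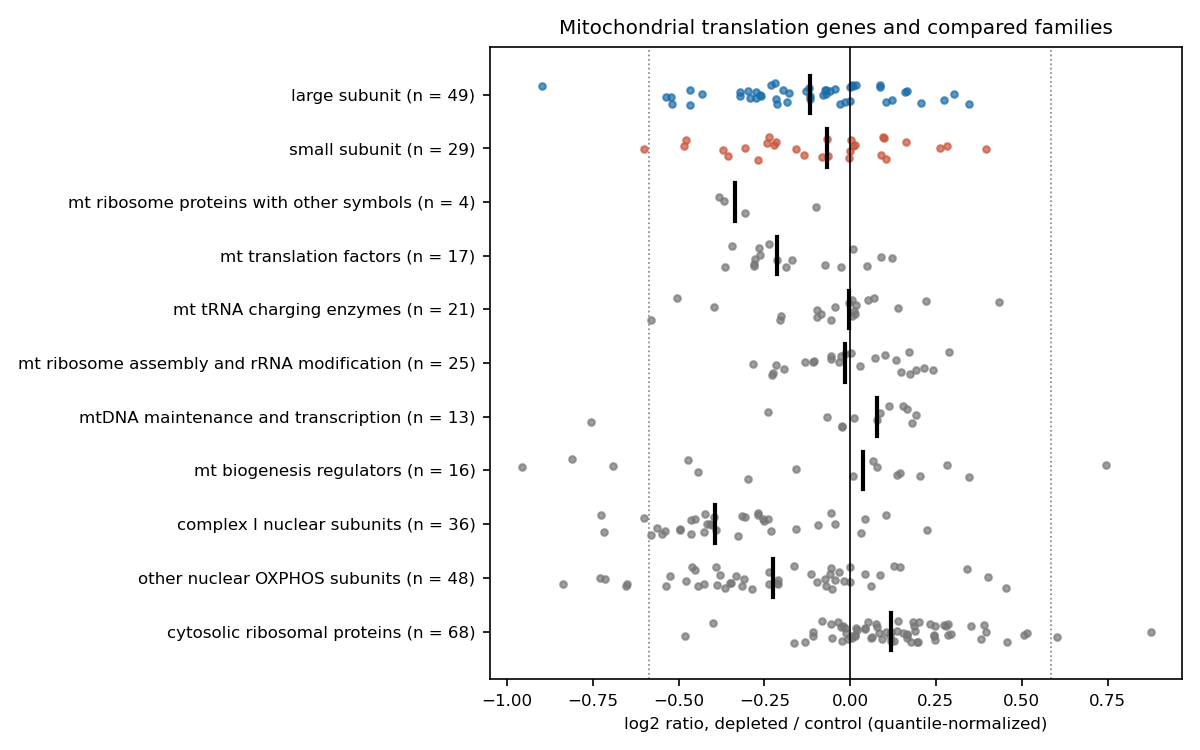
Log2 ratio of depleted over control after quantile normalization for each gene of the large and small subunits and of the compared lists, with the median of each list as a black bar and dotted lines at 1.5-fold. Nuclear complex I genes (median -0.39) lay lower than the large (-0.12) and small (-0.07) subunits and cytosolic ribosomal proteins (0.12) higher. With scaling to the median these medians were -0.06, 0.07, 0.14 and 0.37.

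After quantile normalization neighbours at divergent starts shared a sign in some pairs and not in others. In 15 of 25 pairs with both genes measured the member and its neighbour had the same sign, and Spearman's rho across these pairs was 0.085, a description in which Mrpl46 and Mrps11 count from both sides. These were both lower, at -0.43 and -0.24, and at -0.19 and 0.002 with scaling to the median. Mrps12 and the seryl-tRNA synthetase gene Sars2, 147 bases apart, were at -0.16 and -0.21, and Mrpl32 and the proteasome gene Psma2, 205 bases apart, at 0.30 and 0.32. Mrpl47 and the complex I gene Ndufb5, 308 bases apart, were at 0.16 and -0.55. Mrpl49 and Fau, 192 bases apart, were at -0.32 and 0.20.

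Other features also differed between the 2 muscles. Pdgfra itself read 273.1 in the control and 116.6 in the depleted muscle in the deposited table, and after quantile normalization it was 1.91-fold lower (ratio -0.94), and all 9 measured mesenchymal progenitor markers were lower, with summed deposited values of 10993.6 and 5864.7. All 10 macrophage markers were higher (3275 and 7124.6), with ratios from 0.0039 (Csf1r) to 1.22 (Lyz2). Of these sums Lyz2 alone made 1732.3 and 4337.4. All 5 measured erythroid markers were lower (31773.9 and 5724.4). All 8 endothelial markers were higher (1144.7 and 1508.9), 7 of them with scaling to the median, where 47.4% of all genes were higher after quantile normalization. Several were nearly level: Esam, Cdh5, Emcn, Tek and Kdr had ratios of 0.02, 0.04, 0.04, 0.07 and 0.14, within the spot-to-spot SD of 0.15. Of 5 measured adipocyte markers 2 were lower (5684.2 and 5956.1), and of 6 neutrophil markers 2 were lower (360.5 and 342). The 10 myofibre markers were above background on both arrays, as the muscle label has it, and summed to 415711 and 299569, with 6 lower and 2 higher after quantile normalization and all 10 lower in the deposited table. Every marker named on the array was above background on both arrays but for 1 adipocyte marker, Lep, in the depleted muscle. In whole muscle, fewer cells of a type and less RNA per cell cannot be told apart, and the part of these shifts in the members' ratios was not tested.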

How the data were processed

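RNA of 2 muscles, 1 per group, was hybridised to 1-colour arrays. The deposited scanner values are spot intensities (median pixel at 635 nm), joined from 3 scan gains with no normalization, per the file headers. The authors' deposited table of processed intensity values is each spot minus about the blank mean, times 1.27 (control) or 0.939 (depleted), as found by setting it against the scanner values. Spot intensities were corrected with normexp (offset 50) and quantile-normalized in limma 3.58.1 (R 4.3.3). A gene was its brightest probe, and the comparison covered 18498 genes that passed the background limit on either array. The offset draws ratios of dim genes toward 0. Symbols came from the platform's annotation. The genome build of the platform is not given in the sources used here. Members and lists were chosen with earlier results of these data known. Values in full follow a rule: members past 1.5-fold, the 5 lowest and highest ratios and the 3 brightest and dimmest per subunit, genes with several probes, and the 3 largest ratios per list. The script was tested on simulated data. Alternatives were offset 16, no background correction, subtraction of the blanks or of local background, cyclic loess, scaling to the median, the authors' values, other filters and the mean of probes. Scaling to the median was of log2 values corrected with the offset of 50. With 1 array per group, the number of arrays limits the precision and no p-value was computed.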

Additional observations from a re-analysis of the deposited data

How the results depend on the processing

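No paired analysis was possible because a single array stood for each group. The large subunit median, -0.12, was -0.13 with an offset of 16, with no background correction and over the brighter genes, -0.20 with blanks subtracted, -0.044 with local background subtracted, -0.10 with cyclic loess, -0.17 in the authors' values and 0.067 with scaling to the median. The small subunit median, -0.07, was -0.082 with an offset of 16 and with no background correction, -0.075 in the authors' values, -0.091 with blanks subtracted, -0.52 with local background subtracted, -0.060 with cyclic loess and 0.14 with scaling to the median. Scaling to the median turned 35 lower and 13 higher large subunit genes into 15 and 34, and 17 and 11 small subunit genes into 7 and 22. With local background subtracted, 21 large subunit genes were higher, 20 members were lower and 10 higher by 2-fold or more, and Mrps28 reversed to 0.29. The share of all genes past 2-fold in that setting is not given, so these counts show nothing particular to the members. At least 2-fold higher was 1 member with blanks subtracted, where 503 of all 18498 genes were. In the authors' values it was 1 member, beside 2.86% of all genes. Across the 23473 probes the local background column and the spot's signal had a Spearman's rho of 0.94 in the control and 0.97 in the depleted array, a description. Of the 74 members measured under every setting, 19 were lower and 21 higher in all 11 settings without local background. This counts signs over settings that share the same 2 arrays. The share over all genes is not given, so the counts show nothing particular to the members. Some were close to 0 in a setting, as Mrpl43 at 0.001, Mrps26 at 0.003 and Mrps21 at -0.02. The causes of these changes were not tested.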

Other observations

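Eme1, a DNA repair gene 48 bases from Mrpl27, read 337.3 in the control and 611.9 in the depleted muscle (ratio 0.73), where Mrpl27 was at -0.07. Twnk, the mitochondrial DNA helicase gene 116 bases from Mrpl43, was at 0.08 and Mrpl43 at 0.01. These pairs were picked after their values were seen.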
